A study of Rattus norvegicus with 68 samples.

Results

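Rats given 2500 mg/kg acetaminophen (APAP) were set against rats given 150 mg/kg, all killed at 24 h, to ask what a high dose changed in blood RNA beyond a low one. The members were chosen by the labelled dose and time alone: 4 rats in each group, 8 of the 34 rats of the series and 16 of its 68 arrays. The series covered blood of F344/N males, an inbred rat strain, aged 10 to 12 weeks, at 6, 12 or 24 h after 150, 1500 or 2500 mg/kg. APAP was given by gavage in 0.5% ethyl cellulose, split into 2 doses, so the 150 mg/kg rats were a low-dose group and not untreated animals. RNA of each animal was compared on a dye-swapped pair of arrays with control RNA of the same time. At 6 and 12 h the control is described as 4 vehicle-treated rats, though its labels carry a single rat number. At 24 h it was a pool of 6 vehicle-treated rats. Both groups were read against that same pool, and it cancels in their difference. The values are log2 ratios of a treated rat to the pool, averaged over the 2 arrays of the rat.

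APAP is an analgesic that the liver turns in part into a reactive quinone imine, which binds glutathione and, once glutathione runs low, proteins of the hepatocyte. High doses kill hepatocytes around the central veins, and dying cells release signals to which neutrophils and monocytes of the blood respond. Blood RNA comes from white cells, platelets and young red cells, so its composition can shift with the numbers of these cells as well as with what each of them transcribes. In blood RNA fewer cells of a type and less RNA per cell cannot be told apart, and this holds for each result below. Log ratios hold no expression level, so the presence of blood cell markers could not be checked from them.

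Rat 3631 of the 2500 mg/kg group stood apart. The SD of its log2 ratios over 9654 genes was 0.60, against 0.30 to 0.37 in the other 2500 mg/kg rats and 0.20 to 0.23 in the 150 mg/kg rats, and 729 of its genes lay beyond a log2 ratio of 1 in either direction, against 46 to 244 in the others. Arrays were also compared before the ratios were turned to treated over control. The array of rat 3631 with the treated sample in Cy5 then correlated at 0.28 with the mean of all other arrays. The remaining arrays of both groups correlated at 0.74 to 0.93. That mean holds both dye orientations, so these values describe a profile shared across orientations and not agreement about treatment. The slopes on the mean of all arrays were 0.41 (Cy5) and 1.24 (Cy3) in rat 3631, against 0.89 to 1.22 in the others. Over genes, pairs of 2500 mg/kg rats correlated at -0.10 to 0.53 with a median of 0.36, pairs of 150 mg/kg rats at -0.02 to 0.15, and pairs across the groups at -0.13 to 0.20. The direction of the deposited ratio is not stated. It was taken as Cy5 over Cy3, which is likely but not certain, and with the opposite direction every sign given here would turn. No pair of 24 h arrays of the same orientation correlated below -0.04. Only 46.9% of all genes had the same sign in the difference from both dye orientations.

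Of 9654 genes, 738 differed between the doses (7.64%) at an adjusted p under 0.05 from limma, 247 higher (2.56%) and 491 lower (5.09%) after 2500 mg/kg. The highest were genes of neutrophils and of inflammation, led by Serpinb1a, S100a8 and S100a9, together with plasma protein genes such as Tf, and the lowest included the antioxidant enzymes Gpx1 and Cat, platelet genes such as Myl9, and Cmas. Most differences were small: 23 higher and 54 lower genes passed a log2 difference of 1, and the median size among the called genes was 0.38. The rats of the groups did not overlap in 606 of the 738 called genes (82.1%), against 1198 of all genes (12.4%), 4.42% higher and 7.99% lower. The same rat values made the calls, so the high share among called genes is largely built in. Both dye orientations gave the same sign in 734 of the 738 (99.5%), but these are the arrays that made the calls. By probe, 1152 of 22075 passed (5.22%), 445 higher and 707 lower.

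The number of calls rested on the spread shared with the other groups of the series. With the spread taken from the 24 h rats alone 118 genes passed, 12 higher and 106 lower, and with the 8 rats alone 104. The differences themselves are the same in these fits by construction. Each SE and adjusted p below comes from the spread shared by all 34 rats, not from the 8 rats alone. The SDs within the 2500 and 150 mg/kg groups could differ, at 0.84 and 0.03 for Mmp8 and 0.88 and 1.03 for Serpinb1a. Where the compared rats spread more than the rest, the SE is too small for them. Without rat 3631, 924 genes passed, 46.9% of them higher, and 521 of the 738 were among them. Without rat 3617 and without rat 3618, both of the 150 mg/kg group, 470 and 428 passed.

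**Figure D1:**
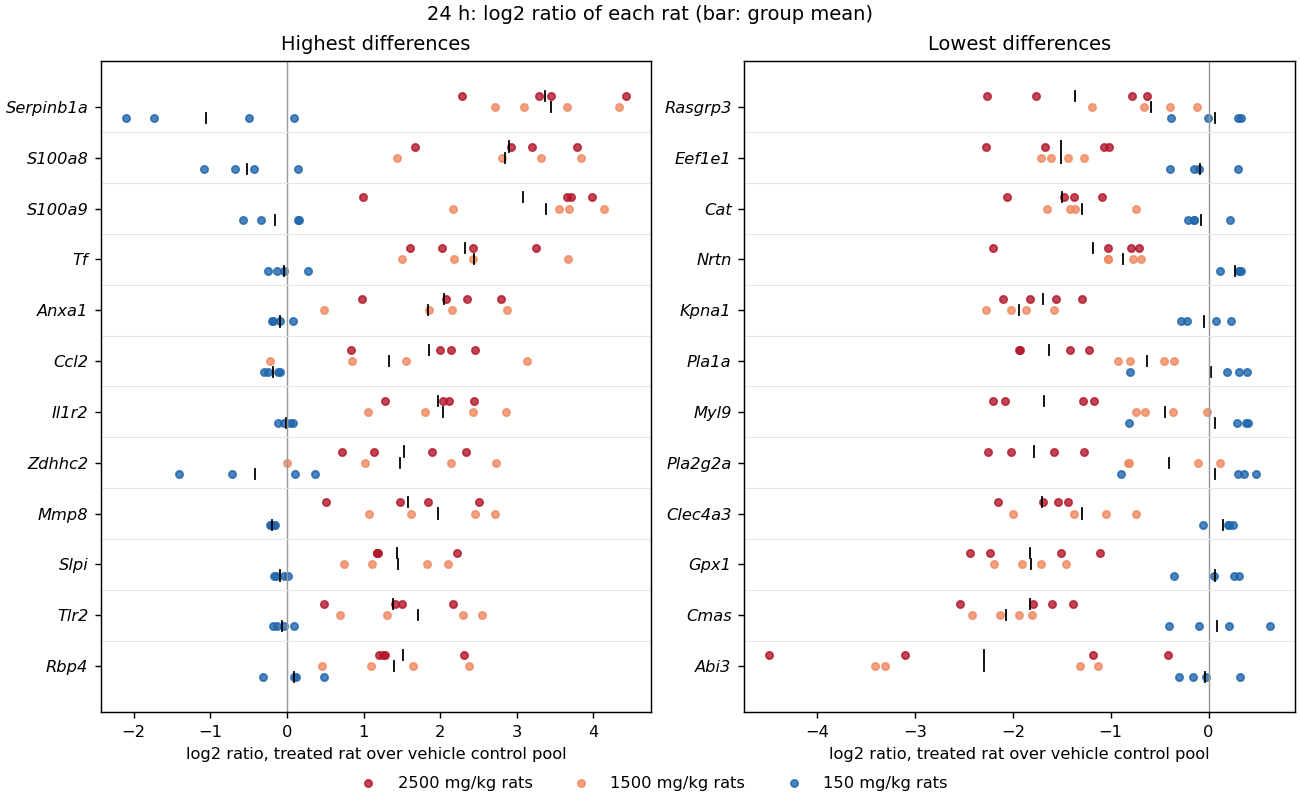
Log2 ratio of each rat at 24 h (horizontal axis, treated rat over vehicle control pool) for the 12 called genes with the highest and the 12 with the lowest difference between 2500 and 150 mg/kg among genes whose rats did not overlap. Points are rats, black bars are group means, and the 1500 mg/kg rats are shown for comparison; the 2500 mg/kg points lie on one side of all 150 mg/kg points by construction, and Abi3, Rasgrp3 and S100a9 show the wide spread among the 2500 mg/kg rats.

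In what follows the 4 values of a group are given for rats 3628, 3629, 3630 and 3631 at 2500 mg/kg and for rats 3617, 3618, 3619 and 3620 at 150 mg/kg. Serpinb1a, an inhibitor of the serine proteases of neutrophil granules, had log2 ratios of 4.43, 3.29, 3.45 and 2.29 at 2500 mg/kg and of 0.09, -0.50, -2.10 and -1.73 at 150 mg/kg. Every 2500 mg/kg rat lay far above the pool, while rats 3619 and 3620 lay below it, at -3.42 and -3.20 on one probe and at -0.78 and -0.26 on the other. The difference was 4.42 ± 0.50 (SE from the shared spread, groups of 4 and 4 rats), 21.5-fold, with an adjusted p of 5.72e-06. Both of its probes were called, at 3.79 and 5.05. S100a8, a subunit of calprotectin, which is abundant in neutrophil cytosol, stood at 3.79, 3.20, 2.93 and 1.67 against 0.14, -1.09, -0.68 and -0.43. Its partner subunit S100a9 stood at 3.70, 3.66, 3.98 and 0.99 against 0.16, 0.14, -0.57 and -0.34. In both subunits rat 3631 was the lowest of its group and still above each 150 mg/kg rat. The differences were 3.41 ± 0.47 (SE), 10.6-fold, for S100a8 and 3.24 ± 0.54, 9.43-fold, for S100a9, with adjusted p of 5.44e-05 and 0.000321.

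Mmp8, the neutrophil collagenase, had log2 ratios of 2.51, 1.47, 1.85 and 0.51 after the high dose and of -0.16, -0.16, -0.23 and -0.21 after the low one. The low-dose rats were within 0.07 of each other, and the high-dose rats spread over 2 log2 units. The difference was 1.78 ± 0.29 (SE), 3.42-fold, adjusted p = 0.00032. Alox5, the enzyme that starts leukotriene synthesis, stood at 1.82, 1.08, 0.88 and 1.35 against 0.14, -0.24, -0.14 and -0.10, a difference of 1.37 ± 0.20 (adjusted p = 8.21e-05). Its activating partner Alox5ap was also called, at 0.20. Slpi, a secreted inhibitor of leukocyte proteases, stood at 2.22, 1.19, 1.18 and 1.18 against 0.01, -0.04, -0.16 and -0.14. Rat 3628 was 1 log2 unit above the other high-dose rats, which were alike, and the difference was 1.53 ± 0.24 (adjusted p = 0.000145).

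On the neutrophil list of 19 measured genes, 7 were higher (Serpinb1a, S100a8, S100a9, Il1r2, Mmp8, Alox5 and Alox5ap) and none was lower. That was 36.8% of the list, beside 2.56% of all genes called higher and 7.64% called in either direction. The median difference over the list was 0.20, beside -0.0048 over all genes. The list's median was 0.16, 0.17, 0.14 and 0.29 in the 2500 mg/kg rats and 0.01, -0.10, -0.04 and -0.03 in the 150 mg/kg rats. Other neutrophil genes of the list were near 0: Cxcr2, the receptor for neutrophil chemokines, at -0.05, Mmp9, the granule gelatinase, at 0.06, Lcn2, an iron-binding granule protein, at 0.11, and Ncf1, a subunit of the oxidase, at 0.02. Fcnb, a granule ficolin, was at -0.47 and was not called. From the arrays with the treated rat in Cy5 alone the median was 0.04 with 4 genes higher, and from those with it in Cy3 0.21 with 12. The list held 4 higher calls with the 24 h rats alone and 10 without rat 3631.

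Anxa1, a glucocorticoid-induced protein that dampens neutrophil entry into tissue, stood at 2.79, 2.07, 2.35 and 0.97 in the high-dose rats and at -0.09, 0.08, -0.18 and -0.19 in the low-dose rats. The difference was 2.14 ± 0.34 (SE), 4.41-fold, adjusted p = 0.000207. Il1r2, the decoy receptor that binds interleukin-1 without signalling, stood at 2.44, 2.03, 2.12 and 1.28 against 0.04, -0.11, -0.04 and 0.08. No low-dose rat was more than 0.11 from the pool, and the difference was 1.98 ± 0.29 (adjusted p = 8.95e-05). Ccl2, a chemokine that draws monocytes, stood at 1.99, 2.46, 2.14 and 0.84 against -0.30, -0.25, -0.09 and -0.11, a difference of 2.04 ± 0.39 (adjusted p = 0.00144), with 1 exact 0 among its 16 array values. Rat 3631 was again the lowest high-dose rat in all of these genes.

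The list of interleukin-1 and inflammatory signalling held 31 measured genes, with a median of 0.052. Of these 5 were higher (Ccl2, Il1r2, Sod2, Cxcl2 and Il10) and none lower, 16.1% of the list beside 7.64% of all genes. Sod2, the mitochondrial superoxide dismutase, differed by 1.13 ± 0.24 and Cxcl2, a neutrophil chemokine, by 0.61, while Il10, an anti-inflammatory cytokine, differed by 0.19. The ligands Il1b, Il1a and Tnf were at -0.04, 0.05 and 0.21 and the antagonist Il1rn at 0.10, and none of them was called. Among 23 measured genes of the glucocorticoid list only Anxa1 and Il1r2 were called, both higher, and the list's median was 0.046. That share of 8.7% was near the 7.64% of all genes. The classical glucocorticoid targets Fkbp5 and Tsc22d3 were at 0.19 and -0.44 and were not called. Without rat 3631, 4 genes of the glucocorticoid list were higher and its median was 0.096.

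The called monocyte genes went both ways. Tlr2, a receptor for bacterial lipoproteins, stood at 2.17, 1.41, 1.50 and 0.48 after 2500 mg/kg and at 0.09, -0.04, -0.18 and -0.13 after 150 mg/kg, a difference of 1.45 ± 0.35 (adjusted p = 0.00974). Fcgr1a, the high-affinity IgG receptor, differed by 0.69 ± 0.18. Clec4a3, a C-type lectin receptor of myeloid cells, was lower, at -2.16, -1.69, -1.43 and -1.54 against 0.20, 0.25, 0.21 and -0.06, a difference of -1.86 ± 0.31 (SE), 3.62-fold lower, adjusted p = 0.000312. These 3 were the calls among 19 monocyte and macrophage genes (15.8%, beside 7.64% of all genes), whose median was 0.018. Csf1r, the receptor for the monocyte growth factor, was at 0.29, Cd14 at -0.11 and the lysozyme gene Lyz2 at -0.53, none of them called. The median of the monocyte list was 0.44 in rat 3631 and -0.09 to 0.02 in the other high-dose rats, and without rat 3631 the difference was -0.0029.

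The starts of 4 of the highest genes are shown, chosen from those that lead the neutrophil and glucocorticoid lists and had a sequence at hand. S100a8 and Il1r2 lead these lists too, but no sequence was at hand for them. Each run is the 300 bases from 250 before to 50 after the RefSeq gene start on the GRCr8 assembly, on the strand of the gene. Capitals mark letters that match a searched motif on either strand: TTGCNNAA for C/EBP factors, AGATAA for GATA factors and GAGGAAGT for PU.1, besides the NF-kB motif, which none of the 4 held. Serpinb1a lies at chr17:31799196-31799495 on the plus strand, S100a9 at chr2:178490573-178490872 on the minus strand, Mmp8 at chr8:13008640-13008939 on the plus strand and Anxa1 at chr1:227303683-227303982 on the minus strand.
Serpinb1a: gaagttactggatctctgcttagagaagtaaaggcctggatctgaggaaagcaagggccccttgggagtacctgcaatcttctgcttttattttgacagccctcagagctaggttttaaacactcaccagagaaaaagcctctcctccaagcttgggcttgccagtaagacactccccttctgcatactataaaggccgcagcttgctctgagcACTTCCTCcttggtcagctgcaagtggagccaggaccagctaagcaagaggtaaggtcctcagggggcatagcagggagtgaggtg
S100a9: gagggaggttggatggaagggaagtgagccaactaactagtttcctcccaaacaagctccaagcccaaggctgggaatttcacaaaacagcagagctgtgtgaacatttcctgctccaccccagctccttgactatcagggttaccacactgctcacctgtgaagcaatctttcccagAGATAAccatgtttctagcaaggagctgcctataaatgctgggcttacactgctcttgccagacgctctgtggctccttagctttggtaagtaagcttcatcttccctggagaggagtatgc
Mmp8: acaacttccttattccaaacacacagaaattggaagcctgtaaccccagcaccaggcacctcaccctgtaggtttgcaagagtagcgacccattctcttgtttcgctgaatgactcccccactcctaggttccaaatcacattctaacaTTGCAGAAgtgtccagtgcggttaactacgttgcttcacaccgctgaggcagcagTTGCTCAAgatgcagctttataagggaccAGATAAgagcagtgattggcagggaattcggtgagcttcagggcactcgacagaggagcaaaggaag
Anxa1: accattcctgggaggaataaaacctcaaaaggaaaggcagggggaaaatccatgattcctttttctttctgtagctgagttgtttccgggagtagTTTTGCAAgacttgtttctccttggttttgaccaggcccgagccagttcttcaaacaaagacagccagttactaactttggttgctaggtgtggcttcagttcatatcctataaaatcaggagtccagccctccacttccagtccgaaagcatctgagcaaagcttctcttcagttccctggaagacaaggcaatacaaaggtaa
In the Serpinb1a window the PU.1 letters occurred once, on the opposite strand, in S100a9 the GATA letters once, in Mmp8 the C/EBP letters at 2 places and the GATA letters once, and in Anxa1 the C/EBP letters once.

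The promoter table held 16 of the 24 leading genes, 7 of the 12 highest and 9 of the 12 lowest. The C/EBP letters were found in 4 of those 7 (Tf, Anxa1, Mmp8 and Rbp4) and in none of those 9. They occurred in 10.5% of all 27457 promoters of the table, in 9.19% of the 7934 promoters of measured genes, in 11.4% of the 185 of called higher genes and in 7.21% of the 416 of called lower genes. The GATA letters were in 13% of the called higher and 4.33% of the called lower promoters, beside 7.06% of those of measured genes and 11.3% of all. The NF-kB letters were in 3.24% and 1.92%, beside 1.95% of measured and 1.51% of all, and the PU.1 letters in 3.24% and 2.64%, beside 2.63% and 2.44%. The GATA share was above that of measured genes among called higher promoters and below it among called lower ones, which was not tested. A match is a description of letters and not a site, and the leading genes were chosen by their values.

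Genes of plasma proteins, which are made mostly by the liver, formed a further higher group. Tf, the iron carrier transferrin, stood at 3.25, 2.02, 2.43 and 1.61 in the high-dose rats and at 0.28, -0.03, -0.13 and -0.25 in the low-dose rats. All high-dose rats were at least 1 log2 unit above every low-dose rat, and the difference was 2.36 ± 0.33 (SE), 5.13-fold, adjusted p = 6.42e-05. Rbp4, the retinol carrier, stood at 2.31, 1.28, 1.26 and 1.20 against 0.12, 0.48, 0.09 and -0.31, a difference of 1.42 ± 0.28 (adjusted p = 0.00188). Ttr, the thyroxine carrier that also binds Rbp4, stood at 0.45, 0.24, 0.43 and 1.09 against 0.00, -0.16, -0.01 and -0.06, a difference of 0.61 ± 0.12 (adjusted p = 0.00126). Rat 3628 was the highest for Tf and Rbp4, and rat 3631 for Ttr.

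Of 44 measured plasma protein genes 9 were higher (Tf, Rbp4, Mug1, C3, Ttr, Ambp, Apoc1, Apoh and Ahsg) and none was lower, with a median of 0.11. That was 20.5% of the list, beside 7.64% of all genes. The acute phase genes Crp, Orm1 and Serpina1 were at -0.01, -0.13 and -0.05, and the fibrinogen chain Fgb at 0.14, and none was called. Of 25 enzyme genes of hepatocytes none was higher and only Glul, glutamine synthetase, was lower (4%), at -0.27, with a list median of 0.0075. Cps1, the first enzyme of the urea cycle, was at -0.01, Cyp2e1, which oxidises APAP, at 0.01, and Fabp1, the hepatocyte fatty acid carrier, at 1.05, not called. Whether hepatocyte RNA took part in the plasma protein group was not tested. The list held 1 higher call with the 24 h rats alone and 9 without rat 3631.

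Several antioxidant enzymes were lower. Gpx1, glutathione peroxidase, stood at -2.44, -1.51, -1.11 and -2.24 in the high-dose rats and at 0.31, 0.26, -0.35 and 0.06 in the low-dose rats. The groups were separated by over 0.7, and the difference was -1.90 ± 0.27 (SE), 3.72-fold lower, adjusted p = 6.42e-05. Cat, the catalase gene, stood at -2.06, -1.09, -1.48 and -1.37 against -0.21, 0.22, -0.15 and -0.15, a difference of -1.43 ± 0.20, 2.69-fold lower, adjusted p = 4.74e-05. Blvra, biliverdin reductase, stood at -0.84, -0.59, -0.65 and -0.96 against 0.07, 0.21, 0.08 and -0.03, a difference of -0.84 ± 0.11 (adjusted p = 4.25e-05). All 3 enzymes kept their call under every alternative that was run.

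Of 45 measured antioxidant and Nrf2 genes 12 were lower (Gpx1, Cat, Blvrb, Gpx4, Blvra, Mgst2, Gstp1, Gclm, Me1, Prdx3, Txnrd2 and Gsta4) and 4 higher (Sod2, Nqo1, Mgst1 and Keap1). Together they were 35.6% of the list, beside 7.64% of all genes. The list's median was -0.058, near that of all genes, since the others lay on both sides of 0. Several of the lower genes, such as Gpx1, Cat, Blvrb and Gpx4, are known to be abundant in young red cells. The erythroid list had a median of -0.19, and its part in the antioxidant result was not tested. Hmox1, the inducible haem oxygenase, was at 0.09, Srxn1 at -0.05 and Slc7a11 at -0.12, none of them called, while Nqo1, another Nrf2 target, was called at 0.77 with an adjusted p of 0.0499. Mgst1, a microsomal glutathione transferase, differed by 0.52 ± 0.10 and Keap1, the repressor of Nrf2, by 0.28 ± 0.06. With the 24 h rats alone 5 were lower and none higher, without rat 3631 8 were lower and 6 higher, and from the Cy3 arrays alone the median was 0.04.

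Among 24 measured genes of red cell formation 8 were lower (33.3% called, beside 7.64% of all genes). Bpgm, which makes the bisphosphoglycerate of red cells, stood at -1.68, -1.58, -1.24 and -1.98 after the high dose and at -0.16, 0.05, -0.72 and -0.02 after the low one. The difference was -1.41 ± 0.19 (SE), 2.65-fold lower, adjusted p = 4.25e-05. Nfe2, a transcription factor of red cell and platelet precursors, stood at -0.67, -1.08, -0.79 and -1.82 against 0.35, 0.01, -0.21 and 0.25, and Rhd, the Rh blood group protein, at -1.02, -0.87, -0.73 and -1.67 against 0.28, 0.09, -0.24 and 0.16. In both genes rat 3631 was the lowest. The differences were -1.19 ± 0.19 for Nfe2 and -1.15 ± 0.19 for Rhd, with adjusted p of 0.000147 and 0.00032.

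The 8 genes of this erythroid list were Bpgm, Nfe2, Rhd, Tal1, Bnip3l, Epb42, Alad and Gata1, none was higher, and the median was -0.19. The transcription factors Gata1 and Tal1 differed by -0.39 and -0.79, the membrane protein Epb42 by -0.71 and the haem synthesis enzyme Alad by -0.66. Others did not follow: Alas2, the first enzyme of haem synthesis in red cells, was at 0.40, the membrane anchor Ank1 at 0.47 and the anion exchanger Slc4a1 at -0.30, none of them called. The list's median was -0.31, -0.05, -0.15 and -0.46 in the high-dose rats and 0.05, 0.06, -0.06 and -0.01 in the low-dose rats, so that rat 3629 lay within the range of the low-dose rats. The list held 3 lower calls with the 24 h rats alone.

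Of 19 measured platelet genes 8 were lower and 1 higher (47.4% called, beside 7.64% of all genes). In several of the lower ones, as in a pair of phospholipases, 1 low-dose rat lay towards the high-dose rats. Pla2g2a, a secreted phospholipase known from rat platelets, stood at -1.27, -2.02, -2.26 and -1.59 against 0.36, -0.89, 0.30 and 0.48. Myl9, the regulatory myosin light chain of platelets and smooth muscle, stood at -1.17, -2.09, -2.20 and -1.28 against 0.38, -0.81, 0.29 and 0.40. Pla1a, a phospholipase specific for phosphatidylserine that is also known from rat platelets, stood at -1.42, -1.94, -1.93 and -1.22 against 0.31, -0.81, 0.19 and 0.40. In all 3 genes rat 3618 of the 150 mg/kg group was about 1 log2 unit below its group and between the groups. The differences were -1.85 ± 0.27 (SE), -1.75 ± 0.27 and -1.65 ± 0.22, 3.60-, 3.37- and 3.14-fold lower, with adjusted p of 8.94e-05, 0.000134 and 4.25e-05.

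Gp1bb, a subunit of the platelet receptor for von Willebrand factor, stood at -0.68, -1.17, -1.22 and -1.01 in the high-dose rats and at 0.33, -0.44, 0.38 and 0.27 in the low-dose rats, again with rat 3618 lowest in its group. The difference was -1.15 ± 0.17, 2.23-fold lower, adjusted p = 8.21e-05. The lower genes of the list were Myl9, Rab27b, Gp1bb, Cd9, Pf4, Ppbp, Clu and P2ry12, and P2rx1, an ATP-gated channel, was higher, at 0.12. The chemokines Pf4 and Ppbp of the platelet granules differed by -0.87 and -0.65. Thbs1, Vwf and Selp, all granule or membrane proteins of platelets, were at 0.01, 0.01 and 0.06 and were not called. The list's median was -0.30, and without rat 3631 it was -0.079 with 3 genes higher and 8 lower. From the arrays with the treated rat in Cy3 alone it was -0.037.

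**Figure D2:**
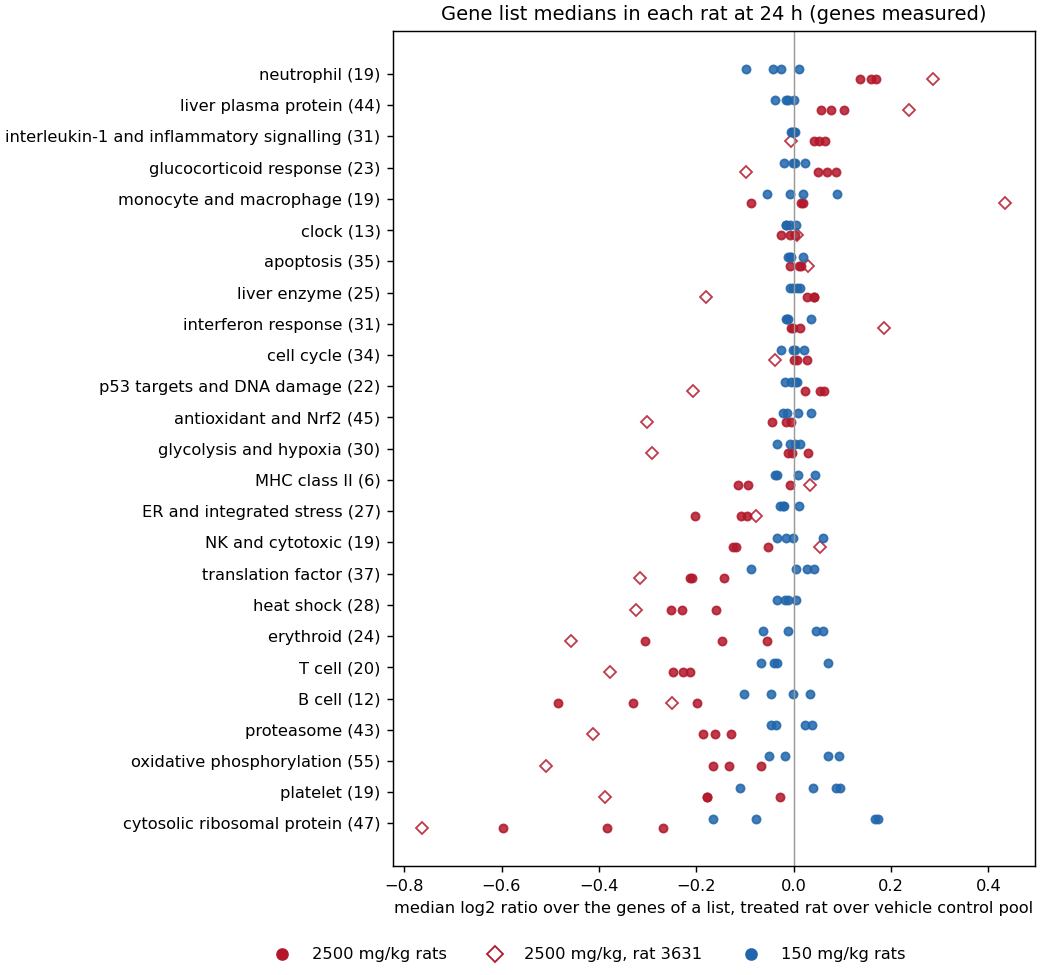
Median log2 ratio of each rat (horizontal axis, treated rat over vehicle control pool) over the measured genes of each gene list, with the number of genes in brackets. Filled points are rats of the 2500 mg/kg (red) and 150 mg/kg (blue) groups and open diamonds are rat 3631; the neutrophil and plasma protein lists lie to the right of 0 in every 2500 mg/kg rat, the ribosomal protein list lies at -0.27 to -0.76, and rat 3631 lies apart in many lists.

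All calls among lymphocyte genes were lower, in 20% of the T cell list, 25% of the B cell list and 10.5% of the natural killer list, beside 5.09% of all genes. Cd6, a receptor of T cells, stood at -0.67, -0.92, -1.38 and -1.30 after the high dose and at -0.26, -0.02, 0.12 and -0.27 after the low one, a difference of -0.96 ± 0.24 (adjusted p = 0.0138). Cd3g, a chain of the T cell receptor complex, stood at -0.38, -0.45, -0.97 and -1.65 against -0.36, 0.23, 0.32 and -0.11. Rats 3628 and 3617 nearly met there, and the difference was -0.88 ± 0.26 (adjusted p = 0.0366). The 4 called genes of 20 on the T cell list were Cd6, Cd3g, Lck and Ptprcap, with a list median of -0.21, while Cd5 at -1.18, Lat at -0.84 and Cd2 at -0.72 were as low and were not called. Cd4 and Cd8b, which mark the main classes of T cells, were at 0.03 and 0.04 and the other coreceptor chain Cd8a at -0.17, not called. The highest difference on the T cell list was 0.61, which was not called either. None of the 20 passed with the 24 h rats alone, and without rat 3631 1 did.

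Jchain, which joins IgM and IgA and marks antibody-secreting cells, stood at -1.48, -1.57, -1.78 and -1.18 against -0.88, -0.28, -0.04 and -0.24, a difference of -1.14 ± 0.33 (adjusted p = 0.0334). Rat 3617 was the lowest of the low-dose rats. On the B cell list of 12 genes 3 were lower (Jchain, Swap70 and Ms4a1), with a median of -0.22, and the transcription factor Spib was at -0.68, not called. The probes of Ms4a1, which encodes CD20, disagreed, with differences of -0.91 and 0.02, and none of the 3 probes of Swap70 was called on its own, at -0.97 to -0.09. Without rat 3631, 6 genes of the B cell list were lower and 1 higher with a median of -0.38, and with the 24 h rats alone none was called. Of 19 genes of natural killer and cytotoxic cells 2 were lower, Gzmm at -0.30 and Ctsw at -0.37, and the granule genes Prf1 and Gzma were at -0.14 and 0.03. Of 6 class II genes RT1-Ba was lower, at -0.20 (16.7% called, beside 7.64% of all genes).

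The cytosolic ribosomal protein list had the lowest median of the 25 lists, with 27.7% of its genes called, beside 7.64% of all genes. Of 47 measured cytosolic ribosomal protein genes 13 were lower and none higher, and the median was -0.56, with high-dose rats at -0.27, -0.38, -0.60 and -0.76 and low-dose rats at -0.17, 0.17, 0.17 and -0.08. The lowest low-dose rat and the highest high-dose rat were 0.10 apart. Rpl29 stood at -0.41, -0.75, -1.05 and -1.26 against -0.10, 0.25, 0.28 and -0.08, a difference of -0.96 ± 0.20 (adjusted p = 0.00324). Rpl10 stood at -0.33, -0.65, -0.73 and -1.68 against 0.06, 0.04, 0.13 and 0.13, a difference of -0.93 ± 0.20 (adjusted p = 0.00428). Rps10, at -0.34 ± 0.08, was a further call, while Rps3, Rpl34, Rpl31 and Rps24 were at 0.20 to 0.31, not called. Ribosomal protein genes have many near-identical pseudogenes, which a probe may not tell apart. With the 24 h rats alone 2 passed, and without rat 3631 8 passed and the median was -0.42.

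Eef1e1, a scaffold protein of the complex of transfer RNA synthetases, stood at -1.67, -1.07, -1.02 and -2.28 in the high-dose rats against -0.15, 0.31, -0.39 and -0.10, a difference of -1.43 ± 0.21, 2.69-fold lower, adjusted p = 8.21e-05. Eif4b, which helps the initiation helicase, stood at -0.97, -1.20, -0.93 and -0.81 against 0.05, -0.08, 0.26 and 0.07, a difference of -1.05 ± 0.18 (adjusted p = 0.000368). The high-dose rats were close to each other in Eif4b. Eif2ak1, the haem-regulated kinase of red cell precursors, differed by -0.87 ± 0.12, but its probes disagreed, at -1.80 and 0.05. Of 37 translation factor genes 6 were lower and none was higher (16.2% called, beside 7.64% of all genes). The median was -0.13, and 5 were lower with the 24 h rats alone. Without rat 3631 the median of the list was -0.20.

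The lists of energy metabolism and protein breakdown also had medians below 0. Of 55 genes of oxidative phosphorylation 7 were lower and Ndufa7 higher (14.5% called, beside 7.64% of all genes), with a median of -0.27. The ATP synthase subunits Atp5po, Atp5f1a and Atp5mc1 differed by -0.71, -0.59 and -0.37. Of 43 proteasome genes 7 were lower and Psmb10, an immunoproteasome subunit, was higher, at 0.56 (18.6% called), with a median of -0.24. Psmf1, an inhibitor of the proteasome, stood at -0.82, -0.92, -0.73 and -1.45 against 0.13, 0.19, -0.19 and -0.01, a difference of -1.01 ± 0.16 (adjusted p = 0.000145). Rat 3631 had the lowest median of both lists, at -0.51 and -0.41. With the 24 h rats alone 1 gene of oxidative phosphorylation and 2 of the proteasome were lower, none was higher, and without rat 3631 3 and 5 were lower, with a median of -0.15 for oxidative phosphorylation. Hk1, the hexokinase of red cells, was lower at -0.47 ± 0.08, and Pfkl higher at 0.17, among 30 glycolysis and hypoxia genes (6.67% called).

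Apart from the antioxidant and Nrf2 list (35.6%), stress programmes that APAP is known to touch in the liver were called at shares around the 7.64% of all genes. These were 3.7% of the endoplasmic reticulum stress list, 9.09% of the p53 list and 10.7% of the heat shock list. Gadd45a, a stress gene of DNA damage, stood at 1.76, 1.07, 1.29 and 0.67 against -0.04, 0.33, -0.18 and -0.19, a difference of 1.21 ± 0.37 (adjusted p = 0.0407), with 0.33 from the arrays with the treated rat in Cy5 and 2.10 from the others. Ccng1, a p53 target, was lower at -0.61, and these were the only calls among 22 p53 and DNA damage genes. The p53 targets Cdkn1a and Mdm2 were at -0.07 and -0.04 and were not called. Of 28 heat shock genes Dnajb6, Hsp90ab1 and Cct5 were lower, at -0.73, -0.58 and -0.27, and the median was -0.17. Of 27 genes of endoplasmic reticulum and integrated stress only Asns, asparagine synthetase, was called, lower at -0.68, while Ddit3 and Atf4 were at -0.37 and -0.39. Among 35 apoptosis genes (8.57% called) Bik was higher at 0.57 and Casp2 and Aifm1 lower at -0.11 and -0.19. Among 34 cell cycle genes (5.88% called) Ube2c was lower at -0.88 and Bub1b higher at 0.13, with Bub1b probes that disagreed at 0.29 and -0.04.

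Interferon genes split. Oas1a, an antiviral synthetase, stood at 1.07, 0.32, 0.38 and 0.71 against 0.10, -0.23, -0.12 and -0.37, a difference of 0.77 ± 0.22 (adjusted p = 0.0308). Of 31 measured genes 4 were higher (Oas1a, Ifit1, Ifitm1 and Oasl) and 2 lower (Isg20 and Ifi27), with a median of 0.0038. That was 19.4% of the list, beside 7.64% of all genes. Isg20, an RNA exonuclease, stood at -0.58, -0.40, -0.27 and -1.64 against 0.23, 0.02, -0.18 and -0.04, and rat 3631 lay over 1 log2 unit below the rest. The difference was -0.73 ± 0.19, and -0.42 without rat 3631. With the 24 h rats alone no interferon gene was called. Of 13 clock genes Nfil3 was higher (7.69% called), at 0.26, and Per1, Per2 and Dbp were at 0.02, 0.12 and -0.21, not called.

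Several of the lowest genes belong to no group above. Cmas, which activates sialic acid, stood at -2.54, -1.60, -1.39 and -1.80 in the high-dose rats against 0.21, 0.62, -0.41 and -0.10, a difference of -1.91 ± 0.24 (SE), 3.77-fold lower, adjusted p = 1.78e-05, and its 2 probes gave -1.90 and -1.92. Kpna1, an importin that carries proteins into the nucleus, stood at -2.10, -1.29, -1.56 and -1.83 against 0.07, 0.23, -0.28 and -0.22, a difference of -1.65 ± 0.19 (adjusted p = 9.34e-06). The high-dose rats of both genes were over 0.9 below each low-dose rat. Nrtn, a growth factor for neurons, stood at -1.03, -0.79, -0.71 and -2.20 against 0.33, 0.31, 0.12 and 0.31, a difference of -1.45 ± 0.21 (adjusted p = 8.82e-05). Rasgrp3, an exchange factor for Ras, stood at -1.77, -2.26, -0.63 and -0.79 against 0.30, -0.39, 0.00 and 0.33, a difference of -1.42 ± 0.27 (adjusted p = 0.00114). Rats 3630 and 3631 were much less changed in Rasgrp3 than the other 2.

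Abi3, an adaptor of actin regulation, had the lowest difference of the leading genes, at -1.18, -0.41, -3.11 and -4.49 against -0.02, -0.16, 0.32 and -0.30. The difference was -2.26 ± 0.65 (adjusted p = 0.0324), and 1 of its 16 array values was at the limit of the scale. Without rat 3631, without rat 3630 and without any of the low-dose rats in turn it was not called. Zdhhc2, a palmitoyltransferase, stood at 2.34, 1.90, 1.14 and 0.72 against 0.37, 0.11, -1.41 and -0.72, a difference of 1.94 ± 0.52 (adjusted p = 0.0218). It was 0.30 from the arrays with the treated rat in Cy5 and 3.57 from those with it in Cy3, and 2 of its 16 array values were exact 0.

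**Figure D3:**
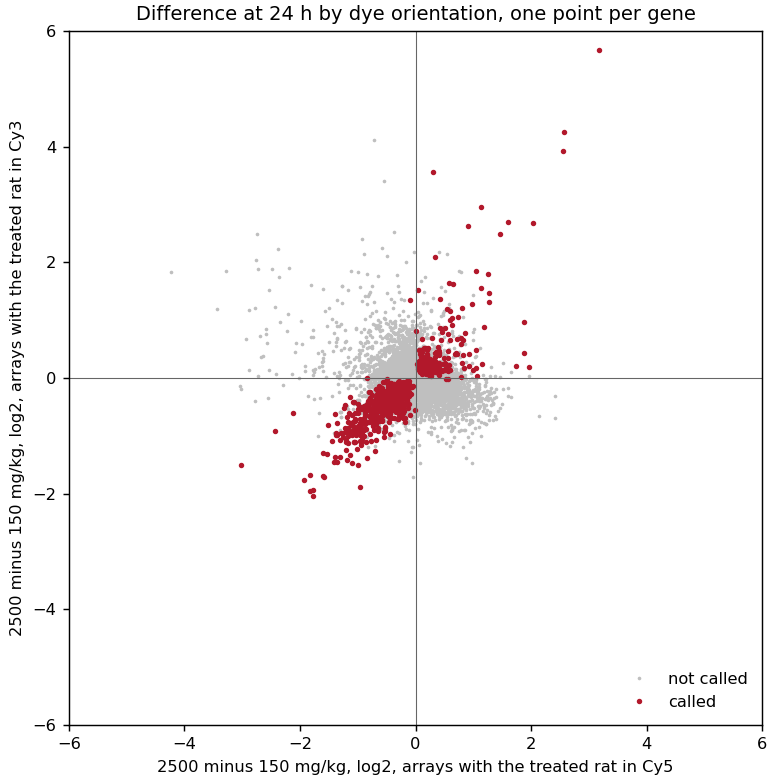
Difference between 2500 and 150 mg/kg at 24 h for each gene, from the arrays with the treated rat in Cy5 (horizontal axis) and from those with it in Cy3 (vertical axis), both in log2. Red points are the 738 called genes, of which 734 have the same sign on both axes; among all genes (grey and red) the share is 46.9%.

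The 1500 mg/kg rats at 24 h were used to ask whether 2500 mg/kg differed from the next lower dose. No gene of 9654 was called between 2500 and 1500 mg/kg (0%) with limma, 761 had an unadjusted p under 0.05, and the smallest adjusted p was 0.136. In 631 of the 738 genes called between 2500 and 150 mg/kg the mean of the 1500 mg/kg rats lay between the other means, in 102 it lay beyond the 2500 mg/kg mean and in 5 on the other side of the 150 mg/kg mean. The 738 genes were called because their 2500 and 150 mg/kg means lay apart. A 1500 mg/kg mean between them is therefore largely built in. The same share was not taken over all genes, and whether the genes followed the dose in steps was not tested. The comparison with 1500 mg/kg also uses the same 2500 mg/kg rats. For Serpinb1a, S100a8 and S100a9 the 1500 mg/kg mean was 3.45, 2.85 and 3.38, beside 3.37, 2.90 and 3.08 at 2500 mg/kg. For Gpx1, Cmas and Kpna1 it was -1.82, -2.07 and -1.94, beside -1.83, -1.83 and -1.70. Some genes known from platelets were less low at 1500 mg/kg: Pla2g2a was at -0.41 beside -1.78, Myl9 at -0.45 beside -1.68, Gp1bb at -0.25 beside -1.02 and Pf4 at 0.20 beside -0.84. Over the whole platelet list, which does not hold Pla2g2a, the median difference between 2500 and 1500 mg/kg was only -0.086. It was -0.107 for the ribosomal protein list and -0.132 for the interferon list.

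These platelet genes were among those with the smallest p between 2500 and 1500 mg/kg, and were chosen for that after their values were seen. The differences were -1.38 ± 0.27 (SE) for Pla2g2a, -1.24 ± 0.27 for Myl9, -0.77 ± 0.17 for Gp1bb and -1.04 ± 0.22 for Pf4, each with an adjusted p of 0.136. Tsc22d1, a regulator of transcription that belongs to no list here, had the smallest p, with a difference of -0.87 ± 0.16. Without rat 3628 of the 2500 mg/kg group, which was the least low of its group for Gp1bb, Myl9 and Pla2g2a, 19 genes were called, 36.8% of them higher. They included Pla2g2a, Myl9, Gp1bb, Pf4, Clu and Tsc22d1, with differences of -1.55, -1.41, -0.88, -1.23, -0.54 and -0.93.

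The same doses were also compared at 6 and 12 h in other rats, with only 3 rats at 150 mg/kg at 12 h. A gene not called at those times may still have differed. At 6 h 14 genes were called between 2500 and 150 mg/kg (0.145%), 2 higher (0.0207%) and 12 lower (0.124%). At 12 h limma called none of 9654 (0%), with 529 genes at an unadjusted p under 0.05 and a smallest adjusted p of 0.861. The genes called higher at 24 h had the same sign at 6 h in 49.4%, beside 49.7% of all genes that were above 0 at 24 h, and those called lower in 47.7%, beside 50%. At 12 h the shares were 70.0% beside 56.2% for higher and 67.8% beside 59.2% for lower genes, with median differences of 0.030 and -0.052.

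**Figure D4:**
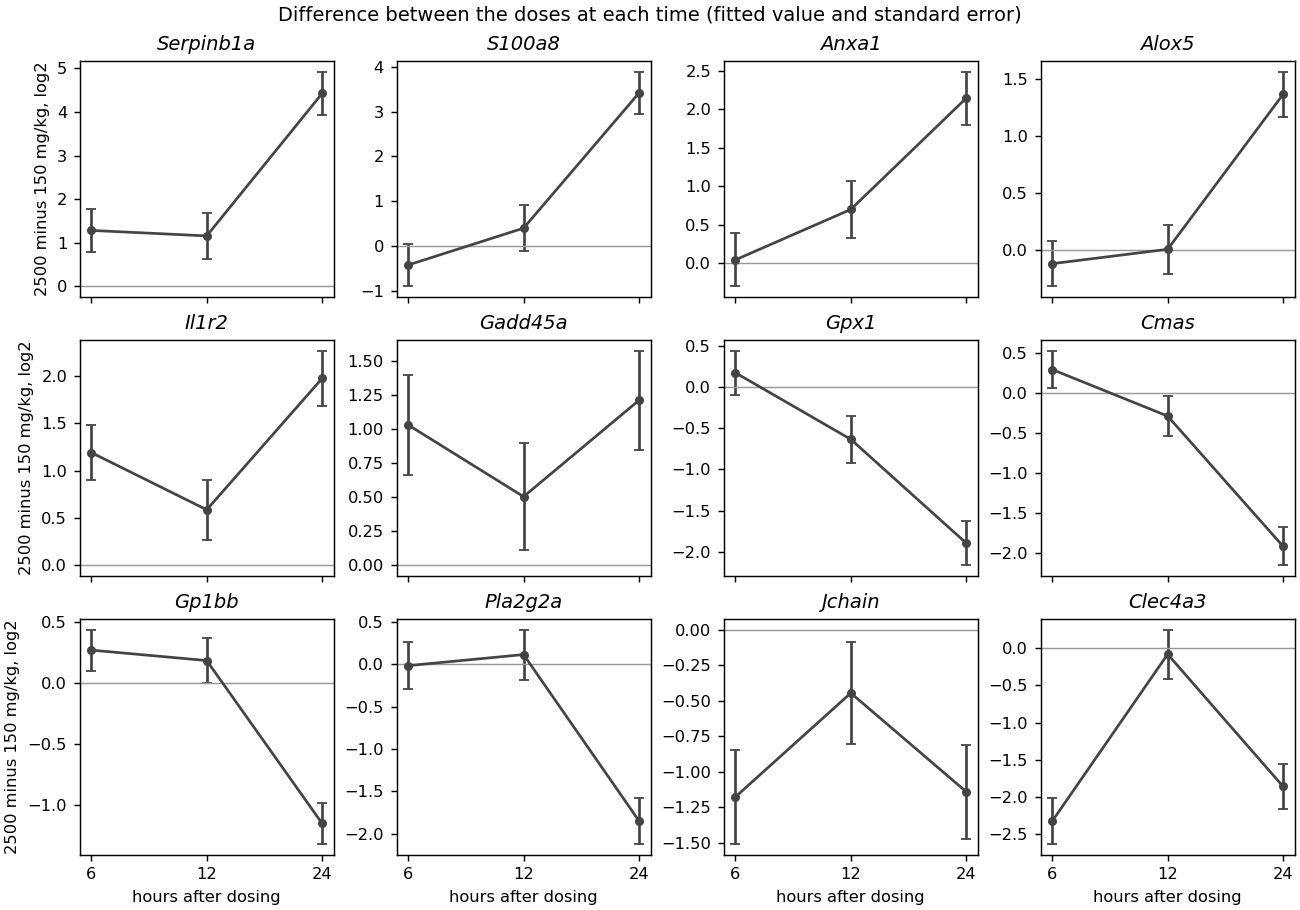
Difference between 2500 and 150 mg/kg (vertical axis, log2, scales differ between panels) at 6, 12 and 24 h (horizontal axis) for 12 of the named genes. Points are fitted differences from 4 rats per group, or 3 at 150 mg/kg at 12 h. Bars are standard errors from the spread shared by all 34 rats. Gp1bb and Pla2g2a lie near 0 or above at 6 and 12 h and below -1.1 at 24 h, and Clec4a3 is low at 6 and at 24 h.

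The change of the difference was tested in the same model. From 6 to 24 h 182 genes changed (1.89%), 29 upward (0.3%) and 153 downward (1.58%), and 171 of them were called at 24 h. S100a8 went from -0.42 at 6 h to 3.41 at 24 h, a change of 3.83 (adjusted p = 0.00137), Serpinb1a from 1.28 to 4.42, a change of 3.14 (adjusted p = 0.0131), and S100a9 from 0.13 to 3.24, a change of 3.11 (adjusted p = 0.0265). On the lower side Cmas went from 0.30 to -1.91, Gpx1 from 0.17 to -1.90 and Kpna1 from 0.33 to -1.65, changes of -2.21, -2.07 and -1.98. From 12 to 24 h 30 genes changed (0.311%), 4 upward (0.0414%) and 26 downward (0.269%), and all 30 were called at 24 h. Each change holds the same 24 h difference that made the calls, so the overlaps of 171 and 30 genes are largely built in.

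Downward changes from 12 to 24 h included genes of platelets. Myl9 went from 0.33 to -1.75, a change of -2.08 (adjusted p = 0.0222), Pla2g2a from 0.11 to -1.85, a change of -1.96 (adjusted p = 0.0285), and Pla1a from 0.21 to -1.65, a change of -1.86 (adjusted p = 0.0183). Upward, Serpinb1a changed by 3.27, Alox5 by 1.36 and Ces1c, a carboxylesterase of plasma, by 1.31. Ces1c differed by 1.07 ± 0.19 at 24 h, with 1.96 from the arrays with the treated rat in Cy5 and 0.18 from the others. This count depended on single rats: without rat 4127 or without rat 4128, both of the 150 mg/kg group at 12 h, 1 gene was left. Without rats 4130, 4136, 4137, 3617 and 3620 in turn it was 7, 13, 4, 6 and 8, and without rat 4138 or rat 3628 it was 46.

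Of the genes called at 24 h, 7 were also called at 6 h, and all 7 are named here after their values were seen. Clec4a3, Crip1, Dusp6, Ramp1 and Swap70 were lower at both times. Clec4a3 was at -2.32 at 6 h, -0.08 at 12 h and -1.86 at 24 h, and Ramp1, a partner of calcitonin-family receptors, at -1.31 at 6 h and -1.23 at 24 h. Crip1, a small LIM protein, was at -0.98 and -0.83, and Dusp6, a phosphatase of ERK kinases, at -1.28 and -0.78. Gnaz, a G protein of platelets and neurons, and Myof, a membrane repair protein, turned: Gnaz was at 0.83 at 6 h and -0.45 at 24 h, and Myof at -1.04 and 0.62.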

How the data were processed

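The deposited table holds log10 ratios of 2-colour arrays, 22075 probes on 68 arrays, made by the authors; the direction of the ratio, the background correction and the normalization are not given in the sources used here. Values were limited to ±2, 2.76% were exact 0, 0.493% lay at the limit, and array medians were -0.00352 to 0. For 34 rats the ratios were changed to log2 and signed as treated over control, and the mean of an animal's 2 arrays was taken as 1 replicate. The number of arrays limits the precision. Of the probes, 12750 had 1 gene, 5 several and 9320 none; 12720 were matched to current symbols (GRCr8), and probes of a gene were averaged.

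Group means of 9 groups were fitted over all rats with limma 3.58.1 in R 4.3.3 (25 residual degrees of freedom), with Benjamini-Hochberg adjustment over 9654 genes and a threshold of 0.05. Tested on simulated data, the fit recovered 90% of changes of log2 1 and 98% of log2 2, with 8 calls among unchanged genes. The simulated rats had independent normal noise, with the same spread of a gene in every group. No dye effect and no rat that stood apart were simulated, so these figures need not hold for the real comparison. The genes named were the 12 highest and 12 lowest called genes whose rats did not overlap, up to 3 called genes of each list and direction with the smallest adjusted p, and the 3 highest and 3 lowest changes over time; list members named for context were chosen after their values were seen. The members and lists were chosen with earlier results of these data known. Alternatives were the rats that set the spread, array scaling, centring, dye profile, single dye orientations, 0 and limit values, probe averaging, a filter on spread, a robust prior and leaving out each rat. Promoter sequences are from RefSeq (GRCr8).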

Additional observations from a re-analysis of the deposited data

Results flagged for a closer look

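Among the 80 named genes, 1 rat stood far from the other 3 of its group in 14 of 160 groups. A rate of about 1 in 20 holds for independent normal values. These genes were chosen by their values in the same rats, and the share over all genes was not taken. An excess over that rate was therefore not tested. In the 2500 mg/kg group the rat that stood far was rat 3628 for Slpi (2.22) and Rbp4 (2.31), rat 3629 for Hk1 (-0.49) and rat 3631 for S100a9 (0.99) and Atp5po (-1.22). In the 150 mg/kg group it was rat 3618 for Gp1bb (-0.44), Myl9 (-0.81), Pla2g2a (-0.89) and Cat (0.22), rat 3617 for Ms4a1 (-0.23) and Ccng1 (-0.40), rat 3619 for Nrtn (0.12), and rat 3620 for Keap1 (0.05) and Clec4a3 (-0.06).

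The named genes were chosen for their difference at 24 h, which is part of each change over time, and some for the change itself. Their counts of changes are therefore largely built in. Over all genes 182 (1.89%) changed from 6 to 24 h and 30 (0.311%) from 12 to 24 h. The difference between 2500 and 150 mg/kg changed from 6 to 24 h in 34 named genes, by the test of that change in the model. It moved upward in 8: S100a8 by 3.83, Serpinb1a by 3.14, S100a9 by 3.11, Anxa1 by 2.10, Rbp4 by 1.90, Alox5 by 1.48, Ttr by 0.73 and Mgst1 by 0.60. Among the 26 that moved downward, the antioxidant and erythroid genes Gpx1, Cat, Bpgm, Rhd, Nfe2 and Blvra changed by -2.07, -1.67, -1.67, -1.52, -1.35 and -0.60. The platelet genes Myl9, Pla2g2a, Pla1a, Gp1bb and Clu changed by -1.96, -1.83, -1.85, -1.42 and -0.79. Cmas, Kpna1, Rasgrp3, Eef1e1 and Nrtn changed by -2.21, -1.98, -1.65, -1.62 and -1.52. The remaining downward changes were -1.18 for Psmf1, -1.04 for Dnajb6, -0.96 for Ube2c, -0.89 for Eif2ak1, -0.75 for Asns, -0.70 for Ctsw, -0.68 for Psmd4, -0.55 for Hk1, -0.39 for Atp5mc1 and -0.28 for Glul.

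From 12 to 24 h the difference changed in 12 named genes, 11 of which also changed from 6 h. Serpinb1a, Alox5 and Ces1c changed by 3.27, 1.36 and 1.31. Myl9, Pla2g2a, Pla1a and Gp1bb changed by -2.08, -1.96, -1.86 and -1.34. Cmas, Nfe2, Psmf1, Ube2c and Clu changed by -1.63, -1.25, -1.22, -1.07 and -0.79.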

How the results depend on the processing

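The count of 738 genes became 104 with only the 8 rats compared, 118 with only the 24 h rats, 318 from the arrays with the treated rat in Cy5 and 1226 from those with it in Cy3, with 33.5%, 18.3%, 10.2%, 27.4% and 48.9% higher in that order, and 428 to 1018 when each rat was left out. The count of 1152 probes (38.6% higher) became 67 (14.9%), 112 (10.7%), 454 (29.5%) and 2355 (54.4%), and 673 (26.3%) with the filter on spread, and 633 to 1752 without each rat. The count of 182 changes from 6 to 24 h became 100 with only the groups compared, 67 in Cy5 and 344 in Cy3, and 129 to 246 without each rat. The count of 30 changes from 12 to 24 h became 1 with only the groups compared, 3 with arrays scaled to one spread and 953 in Cy3, and 1 to 46 without each rat. Between 2500 and 1500 mg/kg it was 0 in each, and 0 to 19 without each rat. For the 738 genes the other alternatives gave 528 to 766 calls.

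None of the 80 named genes reversed in 1515 recomputed values. The call was lost in 288 values, 57 with only the 8 rats and 49 with only the 24 h rats. The absence of reversals was largely built in, since the genes were named for their values in the same arrays. The difference itself cannot change with only the 8 rats, only the 24 h rats, the robust prior or the filter on spread. Where the rats of the groups do not overlap, leaving out a rat cannot turn the sign of the difference. The 16 genes that kept the call throughout were Serpinb1a, S100a8, Tf, Slpi, Clec4a3, Gpx1, Cat, Cmas, Kpna1, Bpgm, Blvra, Hk1, Eif2ak1, Eif4b, Psmf1 and Ube2c. These fits hold fewer rats or arrays, or take the spread from other rats, and the cause of the moves was not tested. No paired analysis was possible because the groups share no rat numbers. Signal over background is not held in log ratios, so dim probes could not be set apart.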
